A study of Mus musculus with 12 samples.

Results

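This account follows 8 mouse genes, Map3k6, Ndrg2, Tgm2, Rcsd1, Cpne7, Slc9a3r2, Tcn2 and Kif21b, through 12 RNA-seq libraries of sorted cells from the testis at postnatal day (PN) 1. They were selected on their measured change with dexamethasone (dex), a man-made glucocorticoid that activates the glucocorticoid receptor (GR), out of 54532 genes: dex raised each of them in germ cells and in somatic cells alike. In the fits used here 16 genes were called higher with dex in both populations, which is 0.106% of the 15130 genes tested in both, and these 8 are among them. The dex contrasts therefore selected the genes, so their changes with dex are given below as a description without a test. What the choice did not use is their level in one population relative to the other, and that was tested.

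All mice were male and carried the strain label Tg(Pou5f1-EGFP)2Mnn, with GFP under the promoter of Pou5f1 (OCT4), so that GFP-positive cells are germ cells. Germ and somatic cells, each after dex or saline, made 4 groups of 3 libraries. Dams were injected at E17.5 and E18.5 (embryonic days) with dex at 10 μg per g of body weight or with saline, the pups received the same at PN0, and testes were taken at PN1. A replicate held cells from testes pooled over at least 2 separately dosed litters, and the somatic fraction is every GFP-negative cell rather than one cell type.

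GR is a nuclear hormone receptor that stays in the cytoplasm until a glucocorticoid binds it. The bound receptor enters the nucleus, where it can attach to DNA as a dimer at a palindromic element or act through other factors, and the genes it controls differ widely between tissues. In the testis GR is known from Leydig and peritubular myoid cells. By staining, the study also reports GR in the nucleus of male germ cells shortly before and after birth. These data come from those days, when germ cells are pro-spermatogonia.

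Library totals lay between 18459692 and 25178477 counts, and no replicates were copies of each other. The sort held: the summed level of 12 germ cell markers was 3583 to 3796 CPM (counts scaled to the depth of the library) in germ libraries and at most 14.8 CPM in somatic libraries. The 10 Sertoli cell markers summed to 54.6 to 102 CPM in germ libraries and 6696 to 7560 CPM in somatic libraries. As each library is a bulk of cells, fewer cells of a type and less RNA per cell cannot be told apart in any value below.

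Promoter sequence is shown for Map3k6 and Slc9a3r2, because the 250 bases before their outermost start lie outside the annotated gene. RefSeq (GRCm38.p6, the build of the files) gave promoter windows of 300 bases, from 250 before to 50 after a start, for 3 of the 8 genes, and 6 windows in all. The 250 bases before the start follow 5′ to 3′ on the gene's strand, chr4:133240568-133240817 (plus strand) for Map3k6 and chr17:24650306-24650555 (minus strand) for Slc9a3r2, and capitals mark the 15 bases closest to the GR palindrome.
Map3k6: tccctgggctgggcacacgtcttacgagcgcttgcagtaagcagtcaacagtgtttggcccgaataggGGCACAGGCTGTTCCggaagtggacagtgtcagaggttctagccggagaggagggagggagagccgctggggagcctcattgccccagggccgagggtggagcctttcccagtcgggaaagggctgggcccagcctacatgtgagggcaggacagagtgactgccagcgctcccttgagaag
Slc9a3r2: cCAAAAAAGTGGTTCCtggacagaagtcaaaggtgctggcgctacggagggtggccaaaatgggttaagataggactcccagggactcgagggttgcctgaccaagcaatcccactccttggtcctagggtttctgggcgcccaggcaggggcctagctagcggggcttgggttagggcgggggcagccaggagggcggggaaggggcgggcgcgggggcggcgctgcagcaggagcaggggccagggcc

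The palindrome searched was the arm AGAACA, any 3 bases, then TGTTCT, which reads the same on both strands, and the arm was also searched alone on either strand. None of the 6 windows held the palindrome with up to 2 mismatches, and 1.84% of all 32851 windows did. No window held the single arm, which was present in 19.0% of all windows. The closest stretch had 3 mismatches in Map3k6 and 5 in Slc9a3r2, and 14.5% of all windows held a stretch with 3 or fewer. Of the 3 windows of Ndrg2, 1 held a stretch with 3 mismatches and the other two had 5 at best. These counts say only which letters stand in these windows.

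Map3k6 (ENSMUSG00000028862, chromosome 4, 133240818 to 133252929, mm10) encodes ASK2, a kinase at the top of the stress-activated MAP kinase cascades. In saline germ cells its level was 14.1, 12.8 and 17.7 CPM in replicates 1, 2 and 3, and in dex germ cells 52.6, 78.1 and 58.3 CPM. In somatic cells it was 5.53, 5.88 and 5.54 CPM with saline and 14.04, 13.2 and 11.3 CPM with dex. The dex and saline libraries did not overlap in either population. Dex somatic libraries reached the range of saline germ libraries, so that these neighbouring groups overlapped. The log2 change with dex was 2.08 ± 0.16 (SE) in germ cells, a 4.22-fold rise, and 1.21 ± 0.20 in somatic cells.

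Ndrg2 (ENSMUSG00000004558, chromosome 14, 51905271 to 51914158) belongs to the N-myc downstream regulated genes, whose proteins share an α/β-hydrolase fold. It was a gene mainly of the somatic libraries, at 94.0, 95.8 and 88.8 CPM with saline and 165, 205 and 173 CPM with dex. Germ libraries held 8.36, 5.68 and 14.4 CPM with saline and 25.6, 38.3 and 22.3 CPM with dex. Saline germ cells were the most variable group for this gene, with a coefficient of variation of 47.2%, yet their highest library stayed under the lowest dex library. The log2 change was 1.59 ± 0.27 in germ cells and 0.99 ± 0.093 in somatic cells.

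Tgm2 (ENSMUSG00000037820, chromosome 2, 158116402 to 158146436) encodes tissue transglutaminase, an enzyme that crosslinks proteins. Saline somatic cells held 102, 147 and 121 CPM and dex somatic cells 197, 214 and 198 CPM. Levels were far lower in germ cells, at 9.19, 9.74 and 12.8 CPM with saline and 16.7, 20.0 and 16.6 CPM with dex. The rise was of like size on the log2 scale in both, 0.74 ± 0.17 in germ and 0.75 ± 0.10 in somatic cells. Exons of Rprd1b on the opposite strand cover 370 bases, or 8.03%, of the exons of Tgm2. With Gm20412 included, 17.8% of the 64-base stretches of Tgm2 transcripts occur in another gene's transcripts on either strand. Whether the counting used strand is not given in the sources used here. Rprd1b itself was not called, with log2 changes of 0.08 in germ and 0.07 in somatic cells (edgeR adjusted p = 0.763 and 0.807).

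Tcn2 (ENSMUSG00000020432, chromosome 11, 3917192 to 3932159) encodes transcobalamin 2, the carrier that delivers vitamin B12 to cells. Its level differed least between populations. Germ libraries held 42.9, 47.3 and 47.2 CPM with saline and 76.0, 68.1 and 63.2 CPM with dex. Somatic libraries held 32.7, 34.03 and 39.2 CPM with saline and 46.7, 44.5 and 50.5 CPM with dex, so that dex somatic and saline germ cells overlapped. The log2 change was 0.59 ± 0.098 in germ and 0.45 ± 0.12 in somatic cells.

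Cpne7 (ENSMUSG00000034796, chromosome 8, 123117374 to 123135182) encodes a copine, a protein that binds membrane phospholipids when calcium is present. It was a gene of the germ libraries, at 26.2, 23.3 and 32.7 CPM with saline and 39.5, 56.5 and 40.2 CPM with dex. In somatic cells it stood near the lower end of what these libraries measure, with 28, 34 and 18 reads in the saline replicates and 83, 93 and 113 in the dex replicates, or a mean of 1.26 ± 0.338 (SD, n = 3) and 5.04 ± 0.571 CPM. Unlike most of the others it changed more on the log2 scale in somatic cells, by 2.02 ± 0.38 against 0.72 ± 0.15 in germ cells.

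The other three genes act at the cell cortex and along the cytoskeleton. Rcsd1 (ENSMUSG00000040723, chromosome 1, 165646516 to 165709757) encodes CapZIP, which binds the actin capping protein CapZ. Its level was 12.4, 14.1 and 15.4 CPM in saline germ and 23.4, 29.9 and 21.1 CPM in dex germ libraries. In somatic libraries it was 61.0, 76.6 and 69.6 CPM with saline and 105, 98.4 and 90.9 CPM with dex. The groups did not overlap, and the log2 change was 0.83 ± 0.16 in germ and 0.54 ± 0.096 in somatic cells.

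Slc9a3r2 (ENSMUSG00000002504, chromosome 17, 24639282 to 24650305) encodes NHERF2, a PDZ scaffold that tethers membrane transporters and receptors to ezrin and its relatives. Germ libraries held 20.7, 23.3 and 26.7 CPM with saline and 37.8, 40.7 and 40.0 CPM with dex. Somatic libraries held 50.8, 47.1 and 51.1 CPM with saline and 78.5, 80.3 and 80.8 CPM with dex. Replicates were tightest here in both dex groups, and the log2 change was 0.74 ± 0.12 in germ and 0.71 ± 0.098 in somatic cells.

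Kif21b (ENSMUSG00000041642, chromosome 1, 136131389 to 136177998) encodes a kinesin that moves along microtubules and regulates their growth. It had the highest counts of the 8, at 83.0, 89.2 and 78.1 CPM in saline germ and 123, 126 and 117 CPM in dex germ libraries. Somatic libraries held 198, 177 and 176 CPM with saline and 278, 248 and 209 CPM with dex. Its log2 change was the smallest of the 8 in both populations, 0.54 ± 0.080 in germ and 0.44 ± 0.099 in somatic cells.

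**Figure D1:**
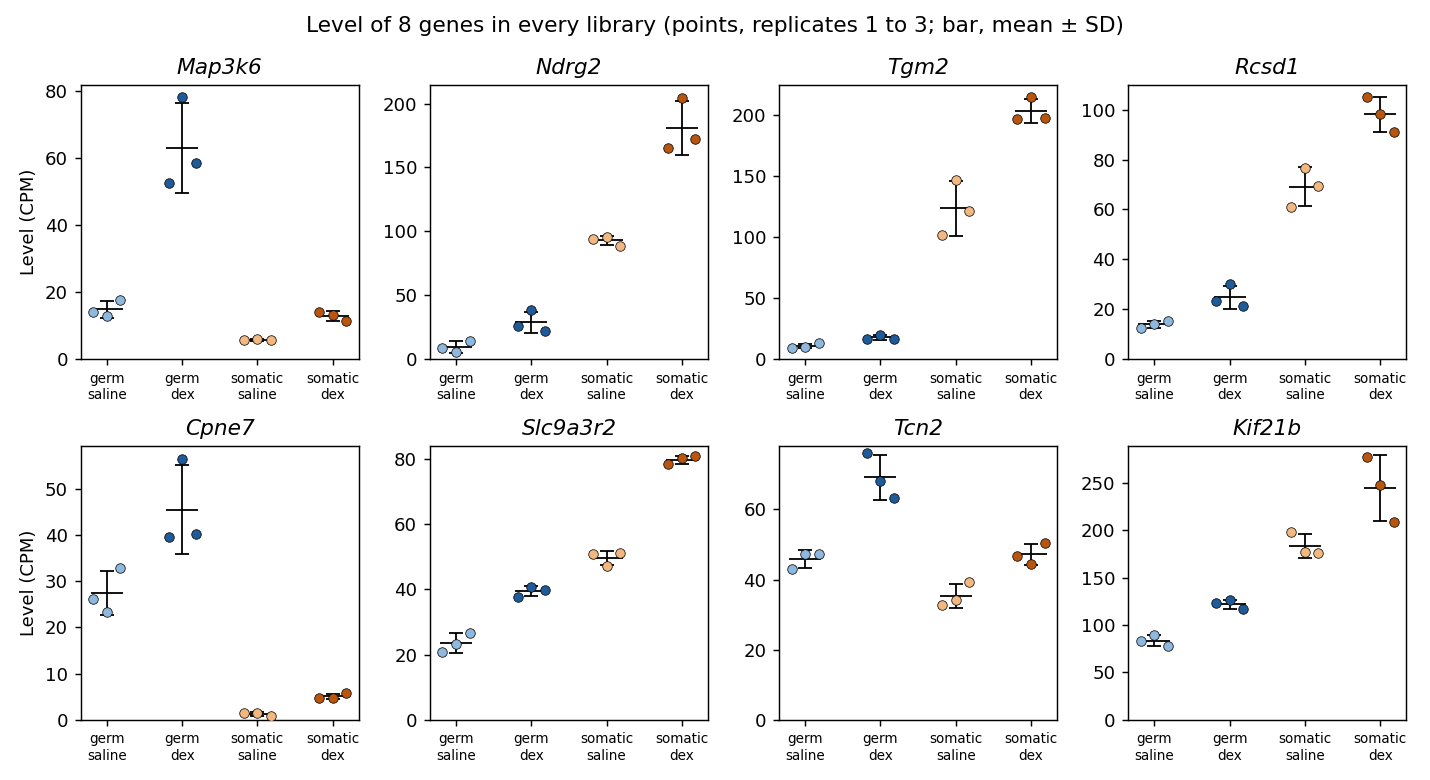
Level of each of the 8 genes in CPM (vertical axes from 0) in every library of the 4 groups, with points for replicates 1 to 3 and bars for the mean ± SD. Every dex library lies above every saline library of the same population, and for Ndrg2, Tgm2, Rcsd1, Slc9a3r2 and Kif21b both somatic groups lie above both germ groups.

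Per length the genes ranked differently. On the FPKM scale, which divides counts by gene length and depth, Tcn2 had the highest level of the 8 in germ cells, 21.4 ± 1.32 FPKM with saline and 32.7 ± 2.96 FPKM with dex. Slc9a3r2 came next, at 10.6 and 18.05 FPKM, and overlapped Map3k6 in dex germ cells. With dex Map3k6 moved from the fifth place to the third, from 3.29 to 14.1 FPKM. In somatic cells Ndrg2 was highest, from 25.6 ± 0.687 to 51.0 ± 6.48 FPKM, and overlapped Tgm2 in the saline group only. Cpne7 was lowest there, from 0.224 to 0.916 FPKM.

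A gene is called where its edgeR adjusted p, corrected over all genes tested, was at or under 0.05. All 8 were called higher with dex in both populations, which is what the choice fixed. None had overlapping dex and saline groups, which the choice favoured, and the share of all genes without overlap was not counted. Across all genes tested, 0.739% were called higher and 0.507% lower in germ cells, and 2.74% and 1.17% in somatic cells. The median log2 change of the 8 was 0.74 in germ and 0.73 in somatic cells, beside −0.0027 and −0.0066 over all genes. Among the 16 genes called higher in both, ranked by the smaller of their log2 changes, the 8 genes held ranks 2, 4, 5, 6, 7, 11, 13 and 14. Rcsd1, at 0.54 in somatic cells, thus stood below Pik3r1, at 0.58, which was not among the 8.

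Fits with 1 library fewer kept fewer of the germ calls. Dex germ replicate 2 had the highest level of its group for 7 of the 8 genes, and saline germ replicate 3 for 6 of the 8. Without saline germ replicate 1, 2 of the 8 germ calls stood, those of Map3k6 and Kif21b, while the genes called over the whole table went from 231 to 49. The log2 changes of the 6 whose call was lost were then 1.505 for Ndrg2, 0.74 for Rcsd1, 0.69 for Cpne7, 0.65 for Tgm2 and for Slc9a3r2, and 0.54 for Tcn2, each within 1 SE of the value from all 6 libraries. The count of the 8 called was 5 without saline germ replicate 2 or dex germ replicate 2, 6 without dex germ replicate 3, 7 without dex germ replicate 1 and 8 without saline germ replicate 3. In somatic cells 6 or 7 calls stood whichever library was left out, and those lost were of Tcn2 and Kif21b.

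The difference between the log2 changes of the populations (germ minus somatic), from a contrast over all 12 libraries, was positive for 7 of the 8 genes. It was 0.90 ± 0.24 (SE) for Map3k6 and 0.64 ± 0.32 for Ndrg2, and reached 1.05 for Ndrg2 without saline germ replicate 3. For Cpne7 it was −1.26 ± 0.31. For Rcsd1 it was 0.33 ± 0.19, and for Tgm2, Slc9a3r2, Tcn2 and Kif21b it lay between 0.036 and 0.17 with SEs of 0.14 to 0.19. These differences were not tested, because both contrasts entered the choice of the genes. For Tgm2 the separate fits gave the other order, 0.74 in germ and 0.75 in somatic cells. The share of all genes with a positive difference was not counted. Each of the 8 genes gained CPM unevenly: the germ rise was 9.05% of the somatic rise for Tgm2, 21.9% for Ndrg2, 37.3% for Rcsd1, 52.8% for Slc9a3r2 and 63.3% for Kif21b. The somatic rise was 14.9% of the germ rise for Map3k6, 21.0% for Cpne7 and 51.1% for Tcn2.

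**Figure D2:**
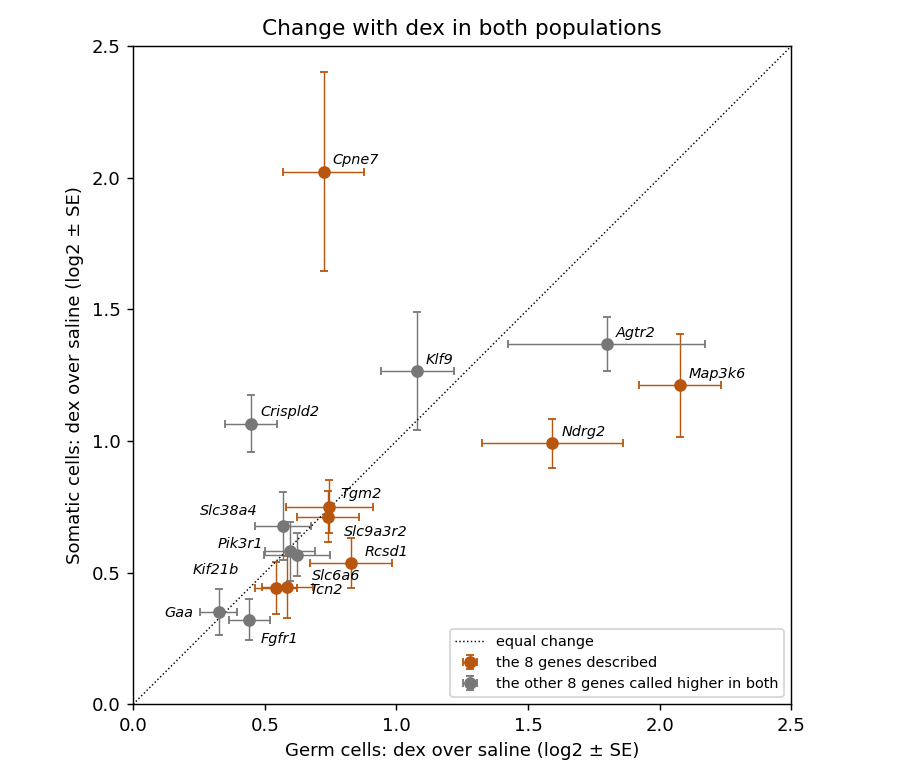
Log2 change of dex over saline in germ cells (horizontal) and somatic cells (vertical), with SE bars, for the 8 genes described and the other 8 genes called higher in both, and a dotted line where both changes are equal. Map3k6 (2.08 and 1.21) and Ndrg2 (1.59 and 0.99) lie below the line, Cpne7 (0.72 and 2.02) far above it, and Tgm2 and Slc9a3r2 close to it.

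RNA of the other population in a sort can be read beside these shares. Sertoli markers in germ libraries summed to 1.27% of their somatic level with saline and 0.889% with dex, and the 9 peritubular and stromal markers to 1.23% and 1.03%. The Sertoli sum was 83.2 to 102 CPM in saline germ and 54.6 to 67.5 CPM in dex germ libraries. Of 9 Sertoli markers tested in germ cells 1 was called lower with dex, Inha (log2 −0.90, edgeR adjusted p = 0.0233). The 6 Leydig markers stood at 6.19% and 5.31%, and the 6 erythroid markers at 2.76% and 3.24%. Most of these sums in germ libraries came from 1 gene each. With saline Star held 6.15 of 10.03 CPM of the Leydig sum, and Alas2 held 5.31 of 8.34 CPM of the erythroid sum. Endothelial markers were at 21.8% and 20.5% (6 genes, 52.2 to 65.0 CPM in germ libraries, of which Pecam1 was higher in germ than in somatic cells and Cdh5 averaged 21.97 CPM in saline germ cells against 219.95 CPM in saline somatic cells). Macrophage markers were at 16.5% and 55.9% (7 genes, 9.33 to 17.1 CPM in germ libraries, mostly Mrc1 and Cd68). The rest, Csf1r, Adgre1, C1qa, C1qb and Lyz2, averaged at most 0.48 CPM in germ cells at either dosing. In the opposite direction germ cell markers in somatic libraries reached 0.395% of their germ level with saline and 0.292% with dex. The somatic fraction also changed with dosing: 3 of 9 peritubular and stromal markers (Acta2, Pdgfra and Dcn) were called higher with dex, and 3 of 7 macrophage markers lower, their sum lying at 52.0 to 89.8 CPM with saline and 24.4 to 33.1 CPM with dex. Also called lower were 2 of 4 erythroid markers tested (Hbb-bs and Hbb-bt, the list's sum lying at 256 to 394 CPM with saline and 85.3 to 299 CPM with dex), 1 of 6 Leydig markers (Star, log2 −0.69, edgeR adjusted p = 0.0102) and 1 of 6 endothelial markers (Tek, −1.23, adjusted p = 0.0267). The part of these cells in the changes of the 8 genes was not tested.

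How far each gene belongs to one population was not used in the choice. The choice did draw on these same libraries and on genes measured in both populations, so this test is not independent of it. All 8 genes differed between germ and somatic cells in saline with no overlap of libraries. The share of all genes without such overlap was not counted. Higher in germ cells were Cpne7 (log2 germ over somatic 4.43 ± 0.24, edgeR adjusted p = 6.7e-09), Map3k6 (1.39 ± 0.19, adjusted p = 3.4e-05) and Tcn2 (0.37 ± 0.11, adjusted p = 0.0094). Lower in germ cells were Tgm2 (−3.55 ± 0.16, adjusted p = 1.4e-09), Ndrg2 (−3.29 ± 0.24, adjusted p = 1.2e-07), Rcsd1 (−2.31 ± 0.13, adjusted p = 8.8e-09), Kif21b (−1.14 ± 0.088, adjusted p = 1.6e-07) and Slc9a3r2 (−1.08 ± 0.12, adjusted p = 5.6e-06). That is 3 genes higher and 5 lower, where 39.8% of all genes tested were called higher in germ and 36.7% in somatic cells. Being called between the populations is thus common and not particular to these genes. The call for Tcn2 was lost without saline somatic replicate 1, with an adjusted p of 0.0788.

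With dex the same genes lay on the same sides, again with no overlap and with the share of all genes not counted. The log2 germ over somatic was 3.17 ± 0.19 for Cpne7, 2.29 ± 0.16 for Map3k6 and 0.55 ± 0.11 for Tcn2 (edgeR adjusted p = 1.1e-08, 6.8e-08 and 0.00046). It was −3.51 ± 0.10 for Tgm2, −2.65 ± 0.17 for Ndrg2, −1.98 ± 0.13 for Rcsd1, −1.02 ± 0.091 for Slc9a3r2 and −1.01 ± 0.10 for Kif21b, with adjusted p-values from 1.9e-11 for Tgm2 to 1.6e-06 for Kif21b. Over all genes 40.5% were called higher in dex germ and 35.7% in dex somatic cells. The dex germ mean of Tgm2 was 8.76% of the dex somatic mean.

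**Figure D3:**
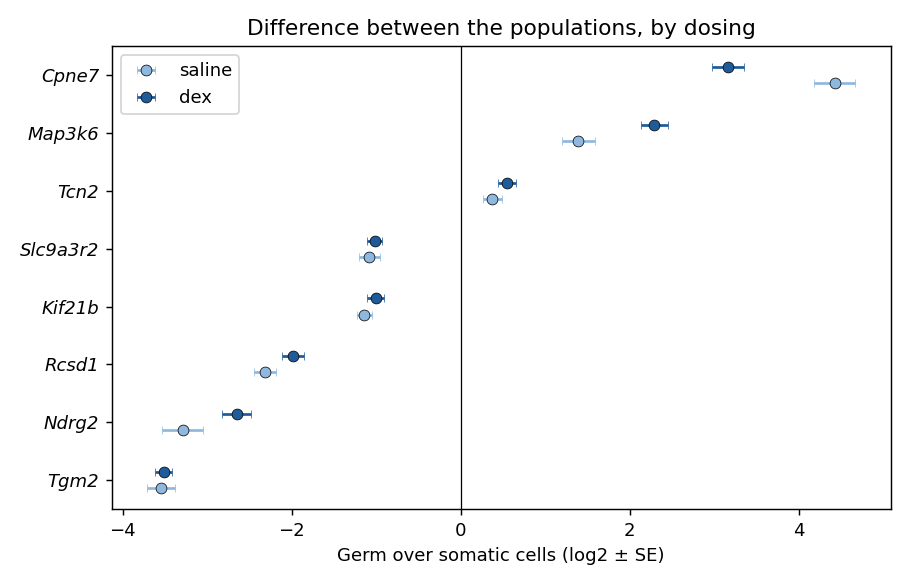
Log2 level of germ over somatic cells with SE for the 8 genes, in saline (pale points) and in dex (dark points), with genes on the vertical axis in order of the saline value. Cpne7, Map3k6 and Tcn2 lie to the right of 0 and the other 5 to the left at either dosing, from 4.43 for Cpne7 to −3.55 for Tgm2 in saline.

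Relatives of the 8 genes were looked up in lists of families and partners, to see whether dex moved a family or a single gene. Of 17 other MAP3 kinases tested in germ cells none was called, with a median log2 change of 0.04. In somatic cells 1 of 16 was called lower, Map3k21 (−0.34 ± 0.086, edgeR adjusted p = 0.0394), a call that stood in 2 of the 6 fits that each left out 1 library (without dex somatic replicate 1 or saline somatic replicate 3). Of the 3 other NDRG genes none was called in germ cells. Ndrg1, which is induced by low oxygen and by metals, rose in somatic cells from 36.5 ± 4.15 to 56.7 ± 5.13 CPM (log2 0.67 ± 0.11, adjusted p = 0.0031) and stood at 0.12 in germ cells. No other transglutaminase was called, of 6 tested in germ and 3 in somatic cells, and all of these were low, the highest mean being 6.80 CPM for Tgm5 in dex germ cells. No other copine was called either, of 5 and 4 tested.

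Among genes of actin filament capping, the partners of Rcsd1, none of 9 was called in germ cells and 1 of 9 was called higher in somatic cells. That was Capg, a gelsolin relative that caps filament ends, from 13.8 ± 0.917 to 24.3 ± 4.09 CPM (log2 0.84 ± 0.15, adjusted p = 0.0049). The kinesin-4 family of Kif21b had no call among 4 genes in either population. Of 9 relatives and partners of Slc9a3r2 tested in germ cells, 2 were called, and both fell while Slc9a3r2 rose. Slc9a3r1, the close paralog NHERF1, went from 147 ± 8.57 to 106 ± 16.7 CPM (log2 −0.48 ± 0.10, adjusted p = 0.0316), and Msn, which encodes moesin and links membrane proteins to actin, from 168 ± 17.6 to 118 ± 4.85 CPM (log2 −0.51 ± 0.083, adjusted p = 0.0080). In somatic cells none of 7 was called, with 0.022 for Slc9a3r1 and −0.0067 for Msn, but the difference between populations was not significant for either (adjusted p = 0.449 and 0.085). Leaving out 1 library at a time kept the germ call of Slc9a3r1 in 1 of 6 fits, without dex germ replicate 2, and that of Msn in 5, all but the fit without saline germ replicate 1.

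Genes that take up and use vitamin B12, beside Tcn2, gave 1 call among 15 tested in germ cells and none among 12 in somatic cells. Mtr, the methionine synthase that needs B12 as its cofactor, rose in germ cells from 370 ± 15.2 to 572 ± 34.9 CPM (log2 0.62 ± 0.069, adjusted p = 0.00057). In somatic cells it went from 104 ± 4.21 to 83.3 ± 8.58 CPM (log2 −0.28 ± 0.092, adjusted p = 0.114), and the difference between the populations was 0.94 (edgeR adjusted p = 0.0009). The germ call of Mtr and this difference stood whichever library was left out. The other 14 genes of the list that were tested in germ cells were not called.

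**Figure D4:**
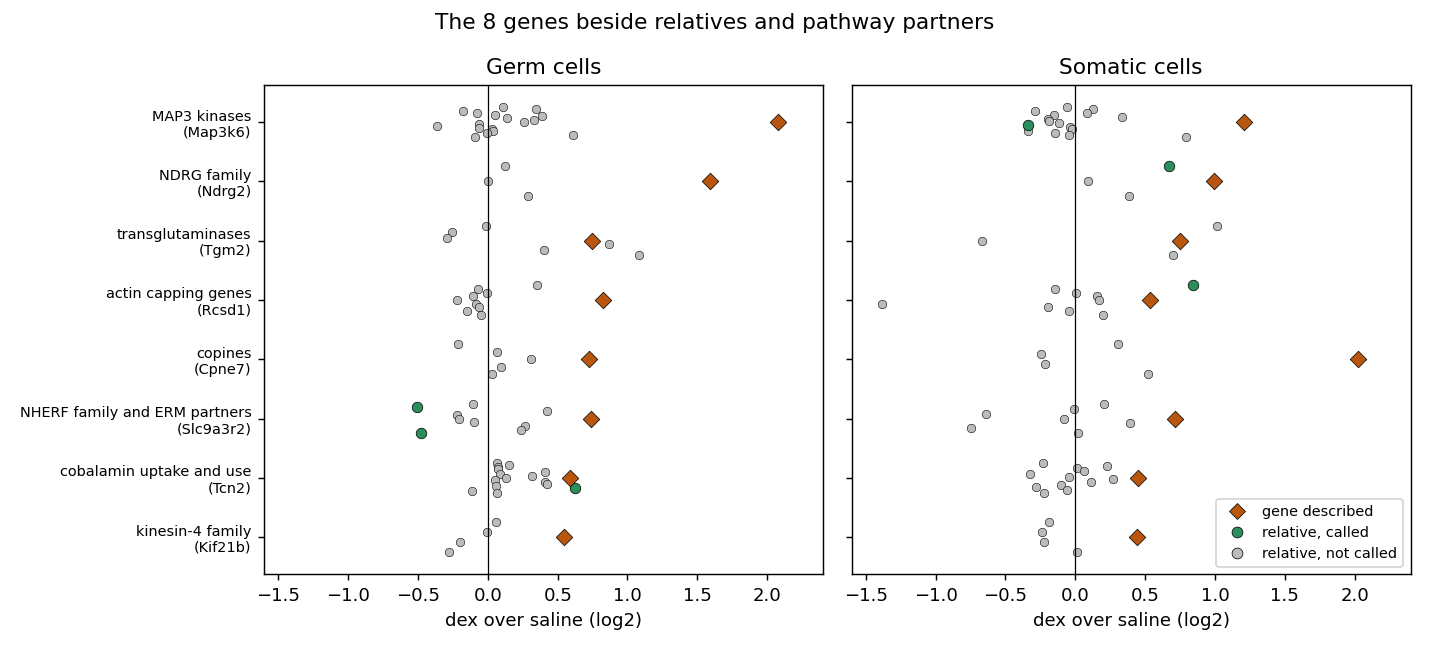
Log2 change of dex over saline in germ cells (left) and somatic cells (right) for each of the 8 genes (diamonds) and for the relatives or partners in its list (green circles where called, grey where not). The diamonds lie at 0.44 or above, and the called relatives are Slc9a3r1 and Msn below 0 and Mtr above it in germ cells, and Ndrg1, Capg and, below 0, Map3k21 in somatic cells.

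Known glucocorticoid targets from a list of 17 gave a different division. In somatic cells 10 of 15 tested were called higher and none lower, and in germ cells 2 of 15 were called higher (Klf9 and Ddit4) and 1 lower (Tsc22d3). Over all genes tested, 2.74% were called higher and 1.17% lower in somatic cells, and 0.739% and 0.507% in germ cells. Klf9, a transcription factor of the Krüppel-like family, was the only one of them called higher in both. The other genes called higher in both were Pik3r1, Slc38a4, Slc6a6, Crispld2, Gaa, Fgfr1 and Agtr2. Agtr2, the type 2 angiotensin receptor, had the largest smaller change of the 16 but was low in germ cells, from 1.02 to 3.56 CPM on average (log2 1.80 ± 0.37), against 150 to 379 CPM in somatic cells (1.37 ± 0.10). Slc6a6, a taurine transporter, rose from 66.2 to 102 CPM in germ and from 153 to 222 CPM in somatic cells, and Pik3r1, the p85α subunit of PI3-kinase, from 46.5 to 70.7 and from 56.4 to 82.4 CPM. Of these 8 other genes, Klf9 kept both calls whichever library was left out, and each of the rest lost its germ or its somatic call in at least 1 such fit. A further 8 genes were called lower in both populations, 1 was called higher in germ and lower in somatic cells, and 1 the other way round.

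Genes next to the 8 were examined to see whether dex moved a stretch of chromosome. Within 100 kb of the 8 genes, 1 of 55 tested genes was called higher in germ cells (1.82%) and 5 of 45 in somatic cells (11.1%), with none called lower in either. Over all genes tested the shares called higher were 0.739% and 2.74%, and the difference from them was not tested. The germ call was Cd164l2, 16263 bases before Map3k6, from 3.87 to 7.77 CPM (log2 1.00 ± 0.20, edgeR adjusted p = 0.0268), and it was too low in somatic cells to be tested. That call stood in 1 of 6 fits that left out a library, the one without saline germ replicate 3. Sytl1, 161 bases beyond Map3k6, was not called in germ cells (−0.02, adjusted p = 0.989).

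The somatic calls beside the genes were each of another kind. Sult5a1, a sulfotransferase gene 5010 bases beyond Cpne7 on the opposite strand, rose from 11.4 to 22.3 CPM (log2 0.99 ± 0.20, adjusted p = 0.0098) and stood at 0.61 in germ cells (adjusted p = 0.0863). Slc35e4, 2528 bases from Tcn2, went from 1.29 to 4.03 CPM (1.66 ± 0.40, adjusted p = 0.0284). Cacna1s, a calcium channel gene 11567 bases from Kif21b, went from 24.0 to 37.7 CPM (0.68 ± 0.12, adjusted p = 0.0045), and D630003M21Rik, 36097 bases from Tgm2, from 44.6 to 61.3 CPM (0.49 ± 0.11, adjusted p = 0.0230). The fifth was Dpep1, a dipeptidase gene near Cpne7 named here after its call was seen (2.78, adjusted p = 5.4e-08). With 1 library left out, the call stood in 1 of 6 fits for Slc35e4 (without dex somatic replicate 2), in 2 for D630003M21Rik (without dex somatic replicate 3 or saline somatic replicate 2), in 5 for Sult5a1 (all but without dex somatic replicate 1) and in all 6 for Cacna1s and Dpep1. The nearest neighbours of Ndrg2, Rcsd1 and Slc9a3r2 on either side were not called in either population, although Npw beside Slc9a3r2 stood at 1.09 in germ cells (adjusted p = 0.0592).

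The gene whose pattern was most like that of a member of the 8 was found by the root mean square (RMS) difference of mean-centred log2 CPM over the 12 libraries, among 11982 genes. These are descriptions, since the points share libraries and the pattern is mostly the difference between populations. Slc9a3r2 was closest to Slc6a6 (RMS 0.17), Kif21b to Fgfr1 (0.16) and Map3k6 to Klf9 (0.46), which were all called higher in both populations. Tcn2 was closest to Ficd (0.13), which was called in neither population. Ndrg2 and Tgm2 shared Ntrk2, the receptor of the growth factor BDNF, as their nearest gene (0.47 and 0.23). Cpne7 was nearest to Actn3, a muscle α-actinin (0.45). Ntrk2 and Actn3 were called higher with dex in somatic cells only (germ edgeR adjusted p = 0.212 and 0.0737). Within the 8 genes the closest pair was Slc9a3r2 with Kif21b (0.19), then Ndrg2 with Tgm2 (0.48).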

How the data were processed

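For the authors, the company Novogene aligned paired-end reads of poly(A) RNA from 12 libraries to mm10 with HISAT2 2.0.5, and reads were counted per gene with featureCounts 1.5.0-p3. The deposited counts are raw. The deposited FPKM values were computed from these counts. The deposited DESeq2 1.20.0 tables hold the study's own fold changes and p-values and were not used. The annotation release and strand setting are not given in the sources used here.

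Groups and replicate numbers came from the labels. Each comparison was fitted on its 6 libraries with the quasi-likelihood test of edgeR 4.0.16 (R 4.3.3), with TMM, filterByExpr at a minimum count of 10 and Benjamini-Hochberg adjustment, and was tested on simulated data. The SE is the log2 change divided by the square root of F. CPM used TMM over 12 libraries, and log2 CPM a prior count of 2. A count of 0 allows up to 3 counts, or 0.111 to 0.17 CPM, for counting error only. Alternatives used DESeq2 1.42.0 and limma 3.58.1 on log2(FPKM + 0.1) and log2(FPKM + 1). P-values of the dex comparisons measure the spread between pools of litters. The main fits between germ and somatic cells, and the contrast over all 12 libraries, were unpaired. The labels do not say which germ and somatic libraries came from the same pool. Beside the members, the rule named called genes of the lists, the nearest tested protein-coding gene on each side and overlapping genes, up to 10 protein-coding genes called higher in both whose mean log2 CPM was 2 or more, and the nearest gene by RMS at that level. The members, lists and rules were chosen with earlier results of these data known. Promoters came from RefSeq and gene overlaps from GENCODE M21. The search with 3 mismatches was added after seeing the data. The nearest gene by RMS for Rcsd1 is not reported here.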

Additional observations from a re-analysis of the deposited data

Results flagged for a closer look

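The change with dex differed between germ and somatic cells, by a contrast over all 12 libraries with edgeR, for 9 genes among the relatives and known glucocorticoid targets. The log2 difference, germ minus somatic, was 0.94 for Mtr (adjusted p = 0.0009) and 1.49 for Ddit4 (0.0152), which had the larger change in germ cells. It was −4.11 for Zbtb16 (1.5e-05), −2.36 for Cebpd (0.0126), −1.48 for Mt1 (0.0110), −1.37 for Tsc22d3 (3.2e-05), −1.24 for Errfi1 (0.0043), −1.08 for Angptl4 (0.0160) and −0.60 for Per1 (0.0282), which had the larger change in somatic cells. Each of these 7 was called higher with dex in somatic cells, and Tsc22d3 was called lower in germ cells (−0.37 ± 0.072, adjusted p = 0.0225). For Klf9, which was called in both, the difference was −0.15 (0.907). Leaving out 1 library at a time kept the difference past the threshold in all 12 fits for Mtr, Zbtb16, Mt1, Tsc22d3 and Errfi1, in 10 for Ddit4 (not without saline germ replicate 1 or 2), Cebpd and Angptl4 (not without dex germ replicate 1 or saline germ replicate 2), and in 3 for Per1 (without dex germ replicate 2, saline germ replicate 2 or saline somatic replicate 1).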

How the results depend on the processing

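In each of the 4 comparisons the 8 genes kept the direction of their change under all 14 alternatives of that comparison. For the dex comparisons the choice of the genes favoured this, so there it is a description and not a check. With replicate numbers as a block, 65 germ genes in place of 231 and 3 of the 8 germ genes were called. The block left the counts of the 8 genes called at 8 in the other comparisons. Same-numbered libraries correlated between −0.101 and 0.075 over the 4 comparisons, never above 0.1, so the numbers were not taken as pairs. Between germ and somatic cells in saline r was 0.045 to 0.054 and each library correlated best with its own number, a hint from the data and not from the design. DESeq2 called 674 germ genes, no filter on low counts 767, and 1 fit of all 12 libraries 142. No filter gave 1061 somatic genes in place of 655. Limma on log2(FPKM + 0.1) called 6 germ and 251 somatic genes, and 1 and 5 of the 8 genes. On log2(FPKM + 1) it called 12 germ and 281 somatic genes, and again 1 and 5 of the 8. Leaving out 1 library gave 49 to 265 germ genes and 2 to 8 of the 8, 354 to 547 somatic genes and 6 to 7 of the 8, and 13964 to 14851 genes and 7 to 8 of the 8 between populations in saline. In dex it gave 13947 to 14713 genes. The cause of these shifts was not tested. Between 5 and 7 of the 8 had the larger rise in germ cells, where the sign turned for Tgm2 in 5 of 14 alternatives and for Slc9a3r2 in 1. The uncalled somatic change of Slc9a3r1 turned to −0.033 with library totals, −0.00037 on log2(FPKM + 0.1), −0.0032 with the replicate block and −0.0055 in the fit of 12 libraries, and ranged from −0.141 to 0.25 without 1 library, where that of Msn ranged from −0.0488 to 0.0385. The lowest germ levels, near 6 CPM for Ndrg2, rest on as few as 109 reads, and somatic Cpne7 on as few as 18.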
